A study of Homo sapiens with 7 samples.

Results

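The regions described here are peaks of H3K27ac, the acetylation of histone H3 that marks active promoters and enhancers, in 11 windows of the genome that each carry a target gene or transcription factor of canonical Wnt signalling. A peak was a member when its midpoint fell in one of the windows, which were drawn in build hg19 around AXIN2, LEF1, NKD1, RNF43, ZNRF3, SP5, TCF7, LGR5, TCF7L2, APCDD1 and TNFRSF19. The windows spanned 11.2 Mb in all, 1.2 Mb for LEF1 and 1 Mb for each of the others, and held 257 of the 36596 peaks in the list.

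The chromatin came from day 15 cardiac cells treated with CHIR and derived from H1, which is a widely used line of human embryonic stem cells. CHIR commonly stands for CHIR99021, a GSK3 inhibitor that turns on canonical Wnt signalling. The labels name 2 H3K27ac replicates and 2 input replicates from these cells, give no dose or time of addition, and describe the peak list as merged, so no peak has a value per replicate. The protocol calls the fixed cells cardiomyocytes, whereas the label calls them cardiac cells, and no chromatin from cells without CHIR was analysed here, so the list shows where the mark lay with CHIR and nothing about a change. RNA of the same genes came from 3 single-cell libraries of H1-derived cardiac cells, at day 15 with CHIR, at day 15 with the vehicle DMSO and at day 11 with no treatment named, 1 library each.

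In canonical Wnt signalling, a ligand bound to Frizzled and LRP receptors stops a complex of AXIN, APC and GSK3 from marking β-catenin for destruction. β-Catenin then enters the nucleus and joins DNA-bound factors of the TCF/LEF family, which switch from repressing to activating their targets. Many targets feed back on the pathway. AXIN2 rebuilds the destruction complex, NKD1 acts on Dishevelled, RNF43 and ZNRF3 are membrane ubiquitin ligases that remove Frizzled from the cell surface, and APCDD1 is a membrane inhibitor of the pathway. In the heart the pathway takes part in forming the atrioventricular canal, the slowly conducting muscle between atria and ventricles, and the cushions from which valves grow.

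The TCF/LEF factors recognise a short core motif, and promoters of the window genes were searched for it. The RefSeq promoter table, in build GRCh38.p14, held 12 entries for 7 of the 11 genes, and AXIN2, NKD1, ZNRF3 and LGR5 were without one. The search covered the 250 bases before each start site for CTTTGAA and CTTTGAT and, for the other strand, TTCAAAG and ATCAAAG. SP5, a zinc finger transcription factor and classic Wnt target, had 3 matches, 148, 109 and 84 bases before its start site, and the other 11 entries had 0. At least 1 match was thus present in 1 of the 12 entries (8.33%), against 5.94% of all 35116 promoter entries. Of all entries, 7 (0.0199%) had 3 or more. The SP5 stretch is shown with its matches in capitals, at chr2:170715087-170715336 on the plus strand, and that of APCDD1 beside it, at chr18:10454385-10454634 on the plus strand, as one without a match and with 29 CpG dinucleotides against 6. The 29 were the most among the 12 entries, whose median was 5.5, against 11 over all entries.
SP5: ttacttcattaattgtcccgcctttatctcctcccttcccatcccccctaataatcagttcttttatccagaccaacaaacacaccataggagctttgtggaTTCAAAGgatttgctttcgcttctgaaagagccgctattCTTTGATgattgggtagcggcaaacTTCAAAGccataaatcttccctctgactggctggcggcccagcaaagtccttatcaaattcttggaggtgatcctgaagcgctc
APCDD1: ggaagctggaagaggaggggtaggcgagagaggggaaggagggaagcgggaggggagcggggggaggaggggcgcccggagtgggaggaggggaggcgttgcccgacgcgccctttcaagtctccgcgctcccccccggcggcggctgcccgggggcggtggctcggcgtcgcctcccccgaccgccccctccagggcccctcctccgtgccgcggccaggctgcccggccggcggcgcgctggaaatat
A match is a run of letters and not a shown binding site. Other forms of the core motif were not searched, so a 0 holds only for the sequences listed. The peaks are in hg19 and no hg19 sequence or annotation was used here, so no peak was assigned to a gene or promoter and no peak sequence was read.

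Of the windows, 8 held more peaks than the typical stretch of the genome and 3 held fewer. The median window held 20 peaks per Mb. The median over all 2431 tiles of 1 Mb with at least 1 peak was 9, and the 90th percentile was 37. The ZNRF3 window held 46 peaks, more than 93.3% of those tiles, and the AXIN2 window 39, more than 90.7%. TNFRSF19 with 33 peaks, LEF1 with 31.7 per Mb, RNF43 with 29, TCF7L2 with 20, TCF7 with 18 and NKD1 with 17 also lay above the tile median. LGR5 with 7 peaks and SP5 and APCDD1 with 5 each lay below it. Peaks covered 29.4 kb of the ZNRF3 window and 2.13 kb of the APCDD1 window, and 9 of 11 windows were above the tile median of 5.32 kb covered per Mb. Windows drawn around genes were set beside tiles drawn without regard to genes, many of which hold few, so this is a description and not a property of Wnt loci.

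**Figure D1:**
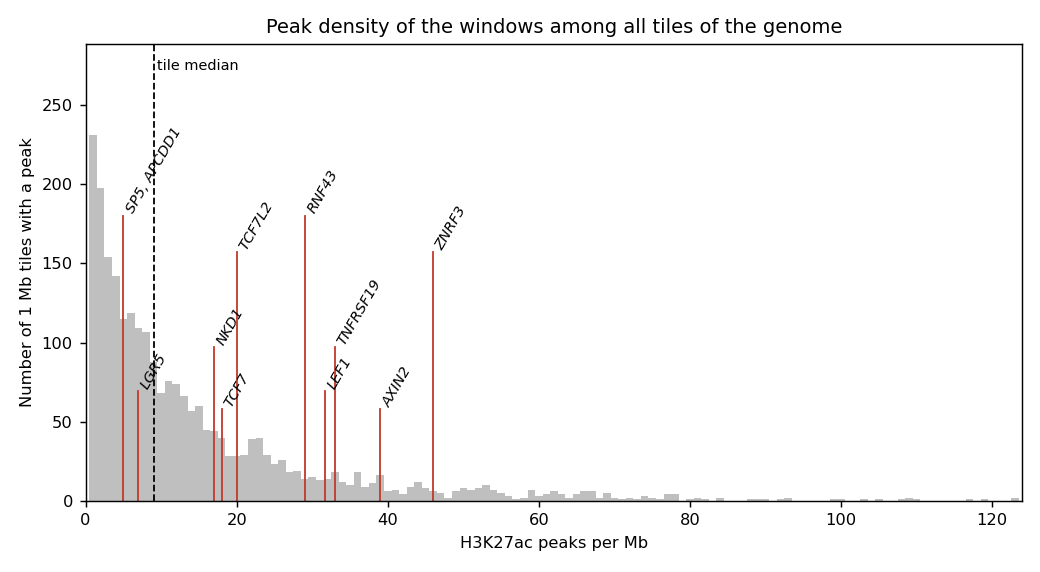
The grey histogram shows how many 1 Mb tiles held each number of H3K27ac peaks, and red lines mark the peaks per Mb of the 11 windows. SP5, APCDD1 and LGR5 sit below the tile median of 9 (dashed line) and the other 8 windows above it, up to 46 for ZNRF3.

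The strength and the width of the member peaks were much like those of all peaks. Strength is given as the fold enrichment at the peak, a linear ratio that the authors' peak caller wrote and that ranks peaks within this list only. Its median was 5.26 in members and 5.69 in all peaks, with members between 2.71 and 54.8. Of the members, 29 (11.3%) were in the top 10% by fold enrichment, which begins at 16.6, against 10.0% of all peaks. The median width was 328 bases in members and 381 in all peaks. Of the members, 26 (10.1%) were in the top 10% by width, which begins at 1280 bases, again against 10.0%. Both thresholds were passed by 18 members (7.004%), against 5.35% of all peaks. Width and strength went together, with a Spearman correlation of 0.71 across the 257 members and 0.73 across all peaks, 2 measures that come from the same reads. A neighbouring peak within 1 kb was present for 137 members (53.3%), against 59.7% of all peaks.

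The typical peak was strongest in the windows of SP5 and LGR5, which held few peaks. The median fold enrichment was 13.8 over the 5 peaks at SP5 and 10.7 over the 7 at LGR5, and between 4.56 and 6.73 in the other 9 windows, with the lowest at APCDD1, which also had 5 peaks. Each window had at least 1 peak of 21.6 or more, above the median of 21.0 for the strongest peak of a 1 Mb tile. The strongest of more peaks tends to be higher, and 8 windows held more peaks than the median tile, so this is a description only. The 3 strongest members ranked 26, 31 and 34 among all peaks. They were chr22:29662966-29666068 in the ZNRF3 window at 54.8, chr5:133511437-133513647 in the TCF7 window at 54.1, and chr22:29194915-29197202, again in the ZNRF3 window, at 53.5. The next 7 lay in the LGR5 window at 48.1, the SP5 window at 41.8, the TCF7 window at 36.2, the AXIN2 window at 35.4, the RNF43 window at 34.7, the LGR5 window at 30.1 and the APCDD1 window at 30.01. The strongest peak was also the widest in 7 of 11 windows.

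**Figure D2:**
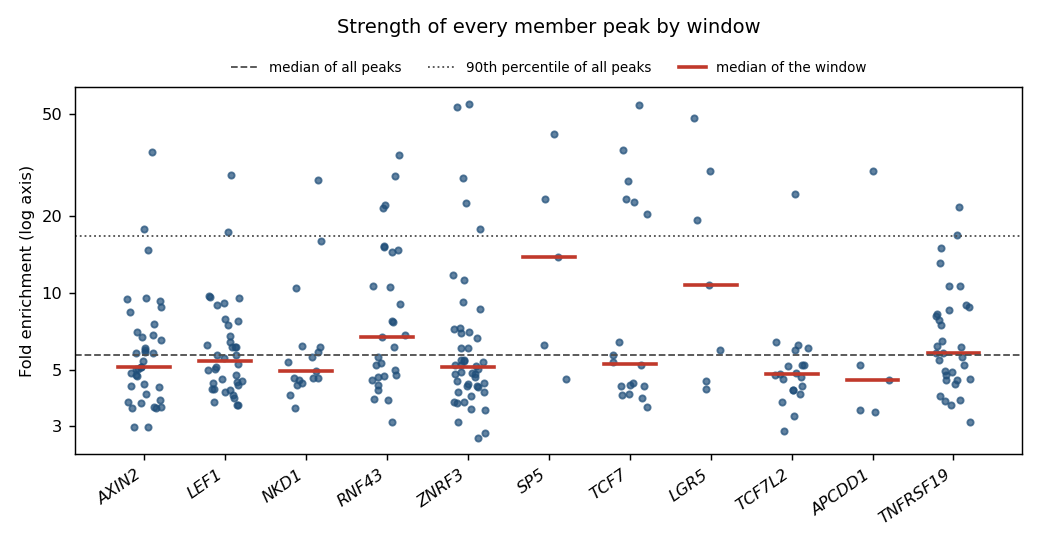
Each point is 1 member peak, placed by its window and its fold enrichment on a log axis, with red bars for the window medians. SP5 and LGR5 have the highest medians, 13.8 and 10.7, on 5 and 7 peaks, and every window has at least 1 peak above the dotted line at 16.6, the 90th percentile of all peaks.

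Peaks crowded towards the middle of the windows, the strong ones less so. The middle 50% of each window held 202 of the 257 members (78.6%), at 36.1 peaks per Mb, and the outer 50% held 55, at 9.82 per Mb. Of all peaks, 49.4% lay in the middle 50% of their 1 Mb tile. Tiles were cut without regard to genes, so a share near 50% was fixed in advance and is no yardstick for these windows. The middle held more peaks in 10 of 11 windows, with 33 of 39 at AXIN2, 32 of 38 at LEF1 and 39 of 46 at ZNRF3, and fewer at APCDD1, with 2 of 5. Of the middle peaks 17 (8.42%) were in the top 10% of all peaks by fold enrichment, and of the outer peaks 12 (21.8%). At LEF1, NKD1 and TNFRSF19 none of the 32, 11 and 24 middle peaks was in the top 10% by that measure, while 2, 1 and 2 outer peaks were. The strongest peak lay in the middle 50% in 7 windows and outside it in the windows of LEF1, NKD1, ZNRF3 and TNFRSF19. Windows around other genes were not measured in the same way.

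**Figure D3:**
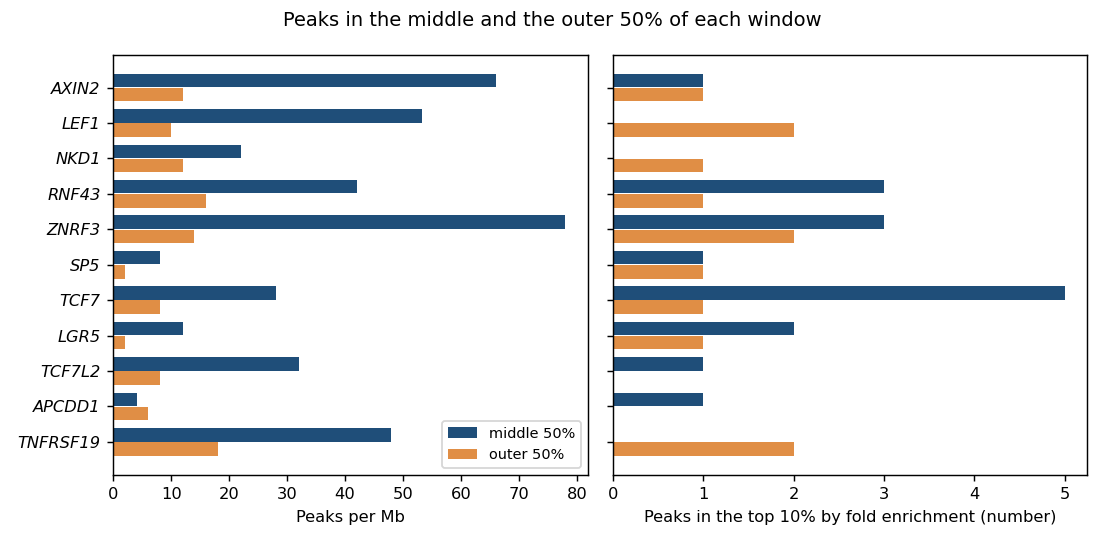
Bars show peaks per Mb (left) and the number of peaks in the top 10% by fold enrichment (right) in the middle and the outer 50% of each window. Density is higher in the middle in 10 of 11 windows, whereas the top peaks are 17 in the middle and 12 outside it.

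Among the feedback inhibitors, AXIN2 had the group with the most peaks. Joining peaks separated by gaps of at most 10 kb gave a cluster of 22 peaks at chr17:63525581-63561698, which spanned 36.1 kb, held 56.4% of the peaks of its window and ranked 44 of 16765 such clusters by number of peaks. One peak stood out in it. This was chr17:63554454-63558700, 4247 bases wide and ranked 46 of all peaks by width, with a fold enrichment of 35.4. The other 21 peaks of the cluster lay between 2.99 and 9.54. A further cluster of 6 peaks lay at chr17:63693520-63702608 and reached 14.7, and the only other member of the window in the top 10%, chr17:63051926-63053265 at 17.8, stood alone near the window's start.

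The window of ZNRF3 had the next largest cluster. This group of 15 peaks at chr22:29278713-29326567 spanned 47.9 kb and ranked 95 by number of peaks, with fold enrichments from 2.82 to 11.8 and a widest peak of 2826 bases. Another of 9 peaks at chr22:29398034-29429031 reached 17.7. The 2 strongest peaks of the window, already named, belonged to neither and stood apart, the one at 54.8 with 36.4 kb and the one at 53.5 with 15.0 kb to its nearest neighbour. In the order of RefSeq genes on GRCh38.p14, ZNRF3 has XBP1, a transcription factor of the unfolded protein response, on one side, and KREMEN1, a receptor for the Wnt antagonist DKK1, 2 genes away on the other side. Which of them lie in the window was not determined, and peaks here cannot be given to one gene.

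RNF43, the close relative of ZNRF3, had 29 peaks in smaller groups. Its largest cluster, 6 peaks at chr17:56466888-56470123, spanned 3.24 kb and reached only 6.14. Its next cluster, 5 peaks at chr17:56429141-56443899, reached 14.7. The strongest peak was chr17:56709110-56710025 at 34.7, followed by chr17:56736595-56737023 at 28.7, and the widest was chr17:56064019-56066188, at 2170 bases and 14.4. The strongest 2 peaks thus lay apart from both clusters.

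The largest cluster at NKD1 held 8 peaks, none of them above 6.20. This cluster, at chr16:50631760-50647761, which held 47.1% of the peaks of the window, lay between 3.52 and 6.20 with a median of 4.60, against 5.69 for all peaks, and its widest peak had 349 bases. The strongest and widest member, chr16:50186445-50188332, had 27.7 and 1888 bases and lay 87.4 kb from the start of the window. The APCDD1 window had 5 single peaks with none closer than 70.8 kb to another, and which gene they belong to was not tested. Their fold enrichments were 3.42, 3.46, 4.56, 5.19 and, for chr18:10525911-10527023, 30.01. The 4 weak peaks were at most 322 bases wide and the strong one 1113, and no peak was found over the last 473 kb of this window.

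Of the TCF/LEF factors, LEF1, the member induced by Wnt signalling in many tissues, had many peaks of modest strength. Its largest cluster held 7 peaks at chr4:109078833-109094673, from 3.73 to 9.62, and included the widest peak of the window, chr4:109092567-109094673, with 2107 bases and a fold enrichment of 9.11. Clusters of 5 peaks lay at chr4:109050172-109063452, up to 6.14, and at chr4:109255440-109260034, up to 8.92. The strongest peak, chr4:109571381-109572414 at 28.9, lay 1172 kb from the start of the window, close to its end. The widest one lay 694 kb from the start, and which gene either belongs to was not tested. TCF7, the factor also known as TCF1, had 6 of its 18 peaks (33.3%) in the top 10% by fold enrichment, with 54.1, 36.2, 27.3, 23.2, 22.7 and 20.3, and no cluster above 4 peaks. Its RefSeq neighbours are VDAC1, a channel of the outer mitochondrial membrane, and SKP1, a subunit of ubiquitin ligases. Which gene these peaks belong to was not tested.

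TCF7L2, the factor also known as TCF4, had 1 strong peak among 20. This was chr10:114710107-114714120, with a fold enrichment of 24.4 and a width of 4014 bases, which ranked 65 of all peaks by width. The other 19 peaks lay between 2.86 and 6.41, and the largest cluster was 4 peaks at chr10:114760112-114767148, up to 6.41. A single wide peak with weak ones around it was thus seen at TCF7L2 and, with more peaks around it, at AXIN2, and these were the 2 widest of the 257 members.

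The remaining windows carry a target factor and membrane proteins. SP5 had 5 peaks with fold enrichments of 4.59, 13.8, 6.23, 41.8 and 23.3 along the window. The first, chr2:171572025-171572517, had 493 bases, and nothing was called in the 472 kb before it. The 2 strongest, chr2:171785654-171787375 and chr2:172016001-172018056, stood 158 and 229 kb from their nearest neighbours. Which gene the peaks of the SP5 window belong to was not tested. LGR5, a receptor for R-spondins that marks Wnt-dependent stem cells, had 7 peaks, of which chr12:72056124-72058811 had 48.1 and 2688 bases. The others had 30.1, 19.3, 10.7, 5.95, 4.50 and 4.18, and the first 530 kb of the window held no peak. TNFRSF19, also called TROY, a membrane receptor of the tumour necrosis factor receptor family, had 33 peaks up to 21.6, at chr13:24462922-24463555, and clusters of 9 peaks at chr13:24125886-24154106, up to 8.93, and of 6 at chr13:24191978-24204852, up to 8.54. Its widest peak was chr13:24080219-24081781, with 1563 bases and 13.1.

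**Figure D4:**
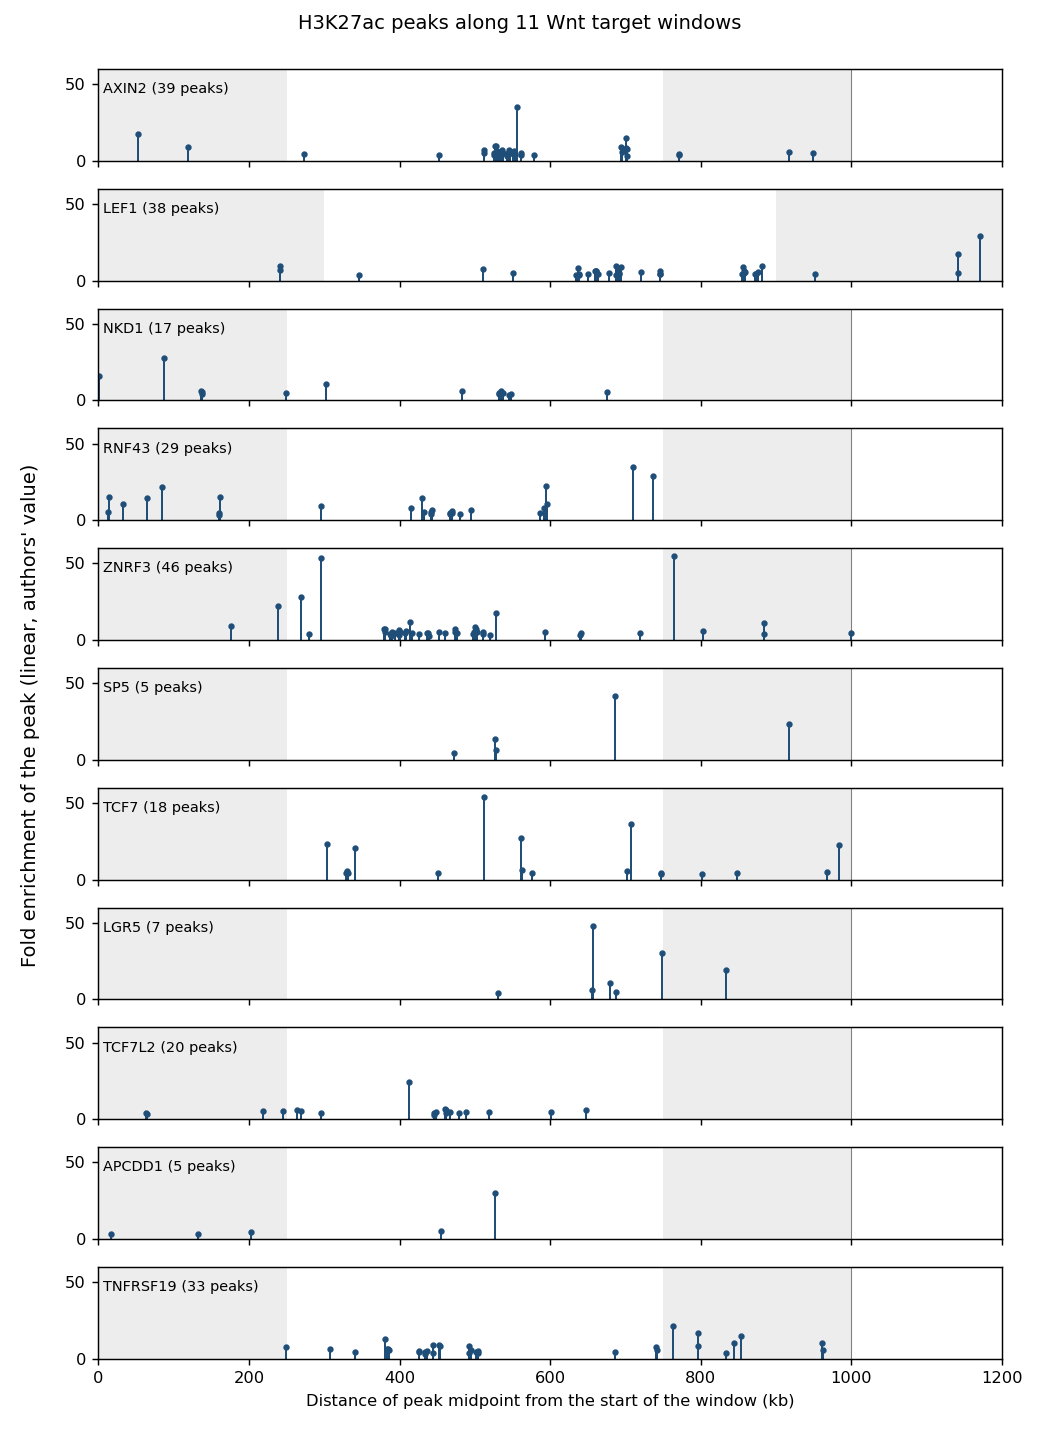
Each row is 1 window, each stem a peak at the distance of its midpoint from the start of the window, and the height its fold enrichment on a linear axis. Grey marks the outer 50% and the thin line the end of the window, which for LEF1 is the end of the axis. AXIN2 and TCF7L2 show 1 tall peak beside many low ones, ZNRF3 low peaks between tall ones, and SP5, LGR5 and APCDD1 few peaks.

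Over all windows, 12 clusters of at least 5 peaks held 103 members (40.1%), against 31.4% of all peaks in such clusters. Clusters of that size were 10.6% of the 113 clusters and single peaks that touch the windows and 8.20% of all 16765. They lay at AXIN2, LEF1, NKD1, RNF43, ZNRF3 and TNFRSF19, and none lay at SP5, TCF7, LGR5, TCF7L2 or APCDD1. The number depends on weak peaks. With only peaks of a −log10 q of at least 10, which 47.5% of members and 54.8% of all peaks reach, 1 cluster of at least 5 peaks was left. In the whole list 378 of 12502 clusters and single peaks (3.02%) were of that size, against 1375 (8.20%) with all peaks. At the edges of the windows the nearest peaks inside had a median fold enrichment of 8.33 (3.42 to 30.01) and those outside 5.99 (3.57 to 39.5). The last ZNRF3 member had its midpoint 0.031 kb inside the edge.

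RNA of most genes named in the windows was higher in the CHIR library than in the DMSO library, with UMIs (unique molecular identifiers, which count transcripts) summed over all cells. The libraries held 65675862 to 81076689 UMIs in 4015 to 5683 cells, and 3 to 6 barcodes were shared by any 2 libraries. With 1 library per group there is no test, and the intervals given are exact 95% intervals for counting error only. Of the 11 genes, 9 (81.8%) were at least 1.5-fold higher with CHIR and 0 lower, against 25.6% and 26.2% of all 18785 genes with at least 20 UMIs. Their median log2 ratio was 2.08, and that of all genes 0.03. The genes were named as Wnt targets with RNA results of these libraries known, so this count is a description.

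All 5 feedback inhibitors were among the 9. Levels are in CPM, the UMIs of a gene divided by all UMIs of its library and scaled up alike in all 3. AXIN2 was at 60.6 CPM with CHIR, 2.25 with DMSO and 8.77 at day 11, and CHIR was 26.9-fold above DMSO (22.8 to 31.9). NKD1 was at 139, 0.898 and 2.41 CPM in the same order, 155-fold higher (119.8 to 203) on 59 UMIs with DMSO. The ubiquitin ligase RNF43 was at 22.4, 3.65 and 7.38 CPM, 6.13-fold higher (5.35 to 7.04). Its relative ZNRF3 was at 20.4, 6.93 and 51.3 CPM, 2.94-fold higher (2.65 to 3.27) but highest at day 11. APCDD1 was at 15.8, 3.75 and 7.59 CPM, 4.23-fold higher (3.69 to 4.87).

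The factors had ratios from 1.33 to 89.8. SP5 was at 21.9 CPM with CHIR, 0.244 with DMSO on 16 UMIs and 0.804 at day 11, 89.8-fold higher with CHIR (55.2 to 157). LEF1 was at 112, 13.1 and 66.6 CPM, 8.57-fold higher (7.99 to 9.20), and TCF7 at 11.9, 3.06 and 5.56 CPM, 3.87-fold higher (3.32 to 4.53). Of the RefSeq neighbours of TCF7, VDAC1 was at 251, 244 and 192 CPM and SKP1 at 322, 703 and 437 CPM, in the same order. TCF7L2 was at 43.4, 32.7 and 124 CPM, a ratio of 1.33 (1.26 to 1.40), and thus highest at day 11 and little apart at day 15. When the totals excluded mitochondrial genes and those of ribosomal proteins, which took 36.4% of UMIs with CHIR and 28.0% with DMSO, its ratio was 1.501, and the median log2 ratio of all genes moved from 0.03 to 0.21.

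Of the receptors, TNFRSF19 was at 45.6, 20.3 and 62.8 CPM, 2.25-fold higher with CHIR (2.11 to 2.39). LGR5 had 17 UMIs with CHIR and 12 with DMSO, a ratio of 1.15 (0.517 to 2.63), so no difference was detectable at this depth. The LGR5 window held peaks of 48.1 and 30.1. Of its nearest RefSeq neighbours, TSPAN8, a tetraspanin on one side, was not listed with CHIR. On the other side lies ZFC3H1, a zinc finger protein of nuclear RNA decay. ZFC3H1 was at 26.3 CPM with CHIR, 12.4 with DMSO and 43.9 at day 11. Which gene, if any, these peaks belong to was not tested.

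Neither the density nor the strength of the peaks followed the RNA ratio across the 11 windows. The Spearman correlation of the ratio of CHIR over DMSO was −0.13 with peaks per Mb, −0.082 with covered kb per Mb and −0.055 with the strongest fold enrichment. SP5 and NKD1, with the highest ratios, had 5 and 17 peaks, and TCF7L2, with a ratio of 1.33, had 20. The 11 points share 1 peak list and 2 libraries, the windows hold other genes too, and the peaks were seen with CHIR alone.

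**Figure D5:**
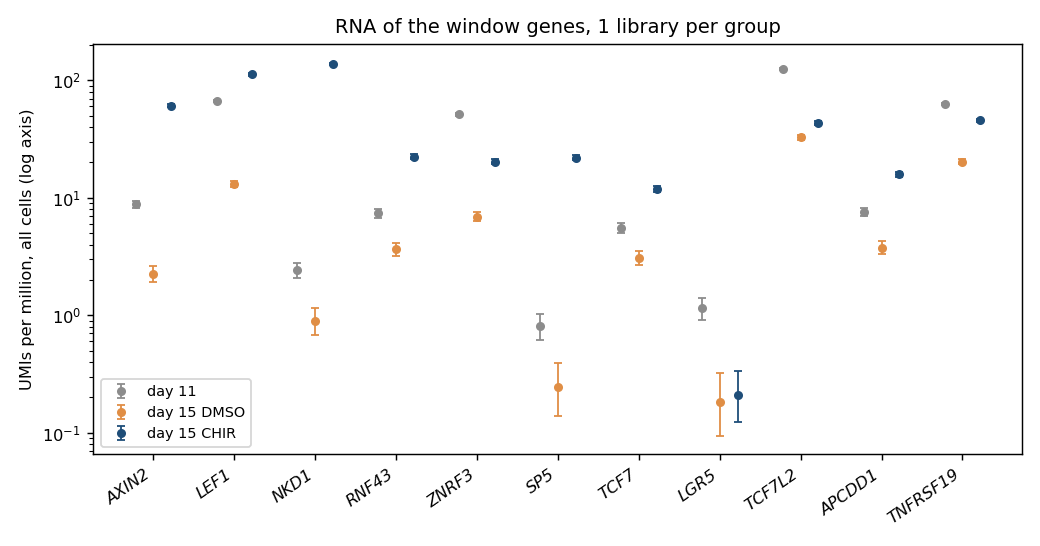
Points give CPM on a log axis, summed over all cells of each library, with exact 95% Poisson intervals for counting error only, for the gene named in each window. The CHIR point lies above the DMSO point for all 11 genes, with overlapping intervals for LGR5, and the day 11 point is the highest for ZNRF3, LGR5, TCF7L2 and TNFRSF19.

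Other genes of the pathway lay in both directions. Of 56 listed, 51 had at least 20 UMIs and were present in both tables. Of these 18 (35.3%) were at least 1.5-fold higher with CHIR and 13 (25.5%) at least 1.5-fold lower, against 25.6% and 26.2% of all genes, and the median log2 ratio was 0.14. The genes named next, apart from DKK2, had at least 50 CPM in either library, so most of the 18 and of the 13 are not named. RSPO3, an R-spondin that amplifies Wnt signals, measured 6.49 CPM with CHIR and 87.1 with DMSO, 13.4-fold lower (12.3 to 14.7). The secreted antagonists SFRP5 and FRZB were 8.13-fold (7.64 to 8.66) and 7.15-fold lower (6.81 to 7.51). The kinase CSNK1A1 of the destruction complex had a ratio of 1.53 (1.49 to 1.58), the receptor FZD2 1.07 (1.03 to 1.11) and CTNNB1, which encodes β-catenin, 0.966 (0.937 to 0.995). DKK2, a secreted modulator of LRP receptors chosen here after its values were seen, had 2565 UMIs with CHIR and 11 with DMSO, a ratio of 189 (105 to 379).

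Markers of several cell types also differed between the libraries, often through 1 gene. The 9 heart muscle markers summed to 7267 CPM with CHIR, 19656 with DMSO and 24056 at day 11, and 5 of them were at least 1.5-fold lower with CHIR than with DMSO. Most of that gap was MYL7, the atrial light chain of myosin, at 735 CPM with CHIR and 10861 with DMSO. Without MYL7, left out after its values were seen, the sums were 6532, 8796 and 13794 CPM. TNNT2, cardiac troponin T, had a ratio of 0.865 and TTN, titin, 1.44. The 7 mesenchymal markers summed to 2547, 1930 and 1573 CPM, and to 2045, 1903 and 1561 without POSTN, a matrix protein at 502 CPM with CHIR and 27.8 with DMSO. Of the other mesenchymal markers, the proteoglycans DCN and LUM had ratios of 0.664 and 0.457, PDGFRB 1.02 and COL1A1 1.26. The 5 endothelial markers summed to 41.7 CPM with CHIR and 28.9 with DMSO, but to 8.39 and 13.4 without KDR. All 4 markers of epicardium and all 4 of endoderm were at least 1.5-fold lower with CHIR, with sums of 54.7 against 171 and 8.92 against 67.8 CPM. The 4 of smooth muscle summed to 663 against 1809, and to 416 against 660.0 without TAGLN. The sums of the 3 pluripotent and of the 3 neural markers stayed at or below 2.42 CPM in every library. SOX1 was not listed in any. The part of these cell types in the RNA ratios and in the peaks was not tested. In sums over all cells, more cells that express a gene and more RNA per cell cannot be told apart, and the labels do not say which cell types gave the chromatin.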

How the data were processed

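H3K27ac peaks came from 1 list on hg19, made with Bowtie2 and MACS2 per the submitters' processing notes. The labels describe it as merged over both replicates. Of caller settings, input use, read depth and replicate values nothing is given in the sources used here. For each peak the authors deposited a fold enrichment (a linear ratio), a −log10 p, a −log10 q and a score. The lowest deposited −log10 q was 2.92. The authors deposited raw UMI counts per gene and cell for each single-cell library, made with Cell Ranger 6.1.1 on GRCh38 per the submitters' processing notes. The cells listed had 1802 to 5999 genes each, and the handling of introns is not stated.

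Peaks were placed by midpoint, tiled at 1 Mb and joined over gaps of at most 10 kb. The 11 peaks on unplaced or unlocalised contigs were left out of the tiles. UMIs were summed over all cells listed, with no further cell filter and no doublet removal. CPM has exact Poisson and ratios exact conditional binomial 95% intervals. The input chromatin was not analysed here. Genes named are the 11 of the windows and, of the pathway list, the 3 highest and 3 lowest ratios with at least 50 CPM in either library. DKK2, genes next to ZNRF3, TCF7 and LGR5, and single cell type markers are named outside that rule, after their values were seen. Peaks named are the strongest and the widest of each window, the 10 strongest members and the largest clusters, with further peaks beside them chosen after their values were seen. Windows, members and lists were chosen with earlier results of these data known. Scripts ran in Python 3.11.15 with pandas 2.3.3 and scipy 1.17.1 and were tested on simulated data.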

Additional observations from a re-analysis of the deposited data

How the results depend on the processing

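The density of peaks in the windows was 22.9 per Mb. It was 10.9 with only peaks of a −log10 q of at least 10 and 36.1 in the middle 50% of the windows, and was the same when peaks were placed by summit or by any overlap. No intervals were identical, so collapsing them could change nothing. Clusters of at least 5 peaks numbered 12, but 7 with gaps of up to 5 kb and 1 with the stricter q. In the whole list they were 8.20% of clusters and single peaks, 5.26% (1019 of 19360) with 5 kb gaps and 3.02% with the stricter q. The matching shares in the windows are not given. The share of members in the top 10% was 8.42% to 16.4% by fold enrichment and 8.42% to 13.1% by width, over 4 and 2 alternatives. Counts of genes higher or lower moved by less than 1.5 times under the RNA alternatives, and TCF7L2 crossed 1.5-fold when the totals excluded mitochondrial genes and those of ribosomal proteins. No paired analysis was possible because the peak list is merged over replicates and no other group has replicates in a file. The depth behind the peaks is unknown, and LGR5 rests on 29 UMIs over both day 15 libraries.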
